A study of Mus musculus with 15 samples.

Results

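High mobility group (HMG) proteins are small, abundant proteins that bind chromatin and change its shape, and 8 of their genes were examined here in neural stem cells of the mouse subventricular zone: Hmga1, Hmga2, Hmgb1, Hmgb2, Hmgb3, Hmgn1, Hmgn2 and Hmgn3. Members were the array's probe sets whose only gene symbol is one of these names. There were 12 such probe sets among 20380 with a single symbol, and they stand for 5 of the 8 genes. Hmga2 had 3 probe sets, Hmgb2 2, Hmgb3 1, Hmgn1 4 and Hmgn3 2. The 5 probe sets that list Hmgb1 and the 1 that lists Hmgn2 also list other genes, so no value is given for them, and Hmga1 is not analysed here.

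The RNA came from subventricular zone cells of female C57Bl6/J mice aged 6 months, grown as neurospheres and used at passages 5 to 7. The subventricular zone is a germinal layer beside the lateral ventricles of the adult brain. Of 15 samples, each on its own Affymetrix array, 5 were undifferentiated cells kept with the growth factors bFGF and EGF. A further 5 were taken 12 h and 5 were taken 24 h after the cells were moved onto poly-D-lysine in 5% serum without growth factors. Whether the samples within a group were grown as separate cultures is not stated, so the p-values reflect only how far these samples spread, which may be technical, and the number of arrays limits the precision. Growth factor loss, serum and the new substrate came together, and the part of each cannot be told apart.

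The HMG proteins form 3 families. HMGA proteins bind the minor groove of AT-rich DNA through short AT-hooks, and HMGA2 is known for sustaining the self-renewal of young neural stem cells, with a level that declines with age. HMGB proteins carry HMG boxes that bend DNA, and HMGB2 is typical of dividing cells. HMGN proteins bind the nucleosome core itself and compete with linker histone H1, which loosens compacted chromatin.

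The arrays differed in ways that bear on these genes. Title and description give different array codes for 13 of 15 samples, and reading the latter would move 8 of them to another group; groups are those of the titles. The title codes end in 1 of 3 suffixes, called A, B and C here, and each suffix holds arrays of every group. Undifferentiated, 12 h and 24 h cells have 2, 2 and 1 arrays with suffix A, 2 each with B, and 1, 1 and 2 with C. Replicates 3 and 4 at 12 h, both of suffix B, were the closest pair of all arrays (SD of their difference 0.150 on the log2 scale, the next pair 0.277). The ratio of the 3' to the 5' actin control probe sets, which rises when RNA is shorter, was 1.95 ± 0.238 in undifferentiated cells, 2.36 ± 0.148 at 12 h and 2.78 ± 0.365 at 24 h (SD, n = 5 each). Of 12 listed markers of neural stem cells and progenitors, 11 were measured above the filter level of 0.51 used for testing (the 40th percentile of all probe sets on the log2 scale), whereas 0 of 10 microglial and 0 of 7 endothelial markers were. Of 9 oligodendrocyte markers 7 were tested and all 7 rose at 24 h, their mean relative to undifferentiated cells lying between -0.304 and 2.64 in the 12 h arrays and between 1.45 and 3.01 in the 24 h arrays. Of 9 astrocyte markers 3 rose at 12 h, and at 24 h 6 rose and 1 fell (median 1.49); their mean lay between -0.78 and 0.52 in undifferentiated arrays, between 0.32 and 1.53 at 12 h and between 0.91 and 1.74 at 24 h. Both tested ependymal markers of 4 listed rose at 24 h, as did 2 of 5 tested neuronal markers and Pdgfrb, the only one tested of 8 pericyte and fibroblast markers (1.97 ± 0.23). The undifferentiated mean of Pdgfrb, -0.24, lies under the filter level, so the size of its rise is not settled. The 11 stem and progenitor markers split at 24 h into 3 higher and 3 lower, with a median of 0.54. Msi1 rose by 1.31 ± 0.22, Sox2 by 1.03 ± 0.24 and Prom1 by 1.03 ± 0.32. Nes fell by 2.05 ± 0.37, Hes1 by 1.72 ± 0.25 and Egfr by 1.08 ± 0.235. Over all tested genes 3.30% were called higher and 4.56% lower at 12 h (limma adjusted p under 0.05), and 12.7% and 19.4% at 24 h. The part of the cell types named above in the HMG results was not tested. In such bulk samples, fewer cells of a kind and less RNA per cell cannot be told apart.

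Across the family, the HMGB gene Hmgb2 fell at both times, Hmga2 was low in every 24 h array but split at 12 h, and Hmgb3, Hmgn1 and Hmgn3 did not pass the test at either time. All 5 genes passed the filter on low values through the probe set with the highest mean, as did 9 of the 12 probe sets. At 12 h, 1 of 5 members was called lower and 0 higher by limma at an adjusted p under 0.05, where 7.86% of 7909 tested genes were called, 4.56% as lower and 3.30% as higher. Hmgb2 and Hmgb3 had an unadjusted p under 0.05 there, as did 26.3% of all tested genes. At 24 h, 1 of 5 was lower and 0 higher, where 32.1% of genes were called, 19.4% as lower and 12.7% as higher. Between 24 h and 12 h, 0 of 5 were called and 0.417% of all genes were. The median log2 difference of the 5 members was -0.03 at 12 h and -0.33 at 24 h, beside 0.0045 and -0.06 over all tested genes. A single call among 5 members does not set them apart from all genes at either time.

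**Figure D1:**
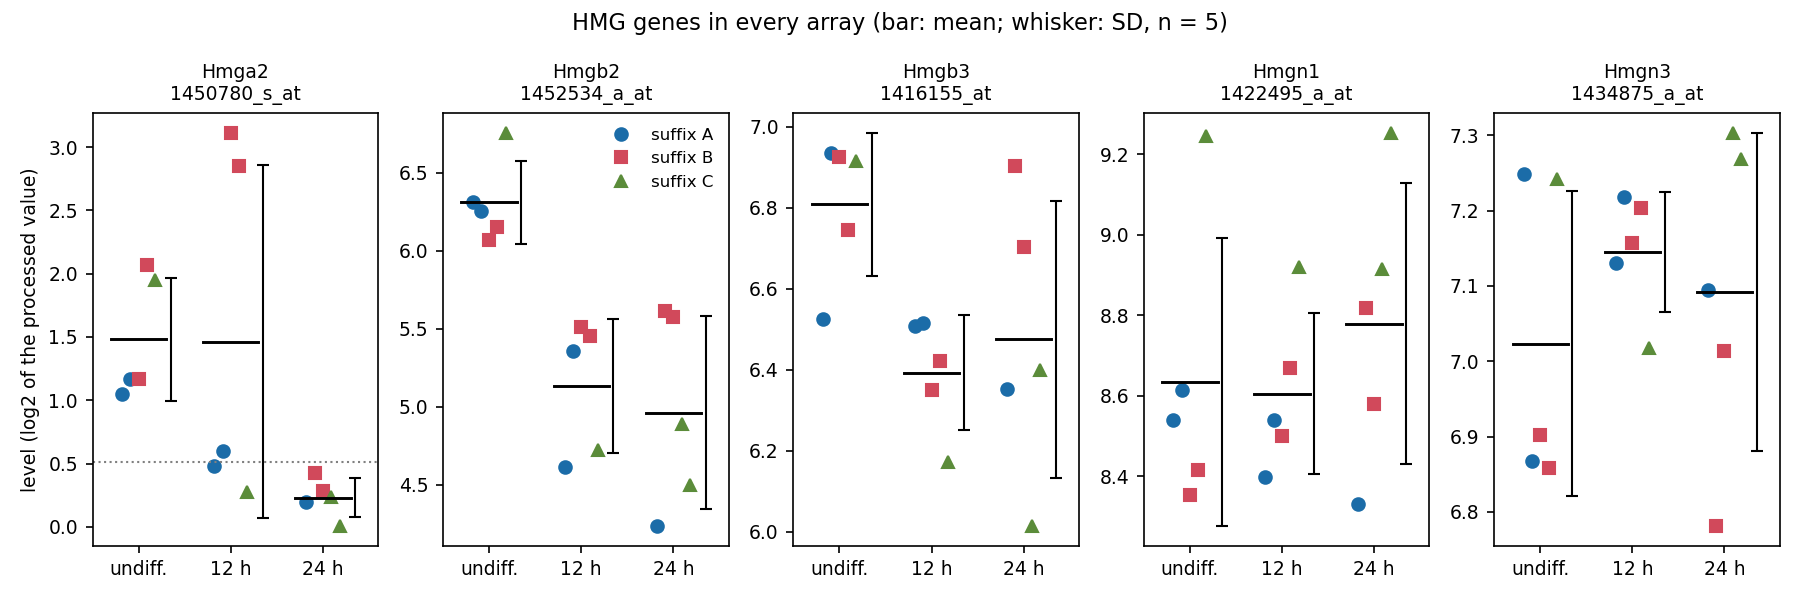
Levels of the 5 measured HMG genes in each array, as log2 of the processed value (vertical axes differ between panels), in undifferentiated, 12 h and 24 h cells. Points are arrays marked by title code suffix, bars are group means and whiskers SDs (n = 5), and the dotted line is the filter level; Hmgb2 is lower in every array at 12 h and 24 h, and the high pair of 12 h points of Hmga2 is replicates 3 and 4.

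Hmgb2, which encodes a DNA-bending protein of dividing cells, lies on chromosome 8 from 57511843 to 57515999 (GRCm38.p6). Its log2 levels in undifferentiated replicates 1 to 5 were 6.32, 6.26, 6.07, 6.16 and 6.76. At 12 h they were 4.61, 5.36, 5.51, 5.45 and 4.72. At 24 h they were 4.24, 5.61, 5.57, 4.89 and 4.50. Every differentiated array lay below every undifferentiated array. Groups that do not overlap were seen for 8.16% of tested genes at 12 h and 25.1% at 24 h.

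Hmgb2 fell by 1.18 ± 0.26 on the log2 scale at 12 h (SE of the fit, n = 5 per group), a 2.27-fold decrease with a limma adjusted p = 0.0168. At 24 h it fell by 1.35 ± 0.26 (limma adjusted p = 0.00176), a 2.55-fold decrease. The step from 12 h to 24 h was -0.17 ± 0.26 (95% interval -0.73 to 0.39), within the spread between arrays. The order of levels was therefore undifferentiated above 12 h and 24 h, with the later times not separated. The 12 h call was lost without 12 h replicate 5 (-1.08 ± 0.28, adjusted p = 0.0526, when 2.64% of genes were called) and without the 4 arrays of suffix C (-0.97 ± 0.29, adjusted p = 0.131, when 0.885% were called).

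A second Hmgb2 probe set, 1437313_x_at, gave smaller differences. The x in its name marks a set in which some probes can match other sequences. Its log2 levels ran from 5.33 to 5.94 in undifferentiated cells, from 4.42 to 5.23 at 12 h and from 4.23 to 5.52 at 24 h, so the 24 h arrays overlapped the undifferentiated ones. Tested among 12556 probe sets, it had a difference of -0.67 ± 0.25 at 12 h that did not pass (adjusted p = 0.120; 5.98% of probe sets were called) and fell by 0.75 ± 0.25 at 24 h (adjusted p = 0.0378; 27.9% were called). Over the 15 arrays its levels followed those of the main probe set with Pearson r = 0.949.

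The size of the Hmgb2 fall differed between the title code suffixes. At 12 h it was -1.30 within suffix A, -0.63 within B and -2.04 within C. At 24 h it was -2.05, -0.52 and -2.06 in that order. It was negative in all of them and smallest in suffix B, whose arrays are the 4 highest of the 12 h and 24 h arrays. Whether the suffixes differ was not tested. The actin ratio moved with the groups too: with it as a covariate the Hmgb2 differences were -1.23 ± 0.33 and -1.45 ± 0.48, as large as without it, and did not pass (adjusted p = 0.0604 and 0.0923), when 2.15% and 0.43% of genes were called.

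The 3 tested genes with the highest Pearson r with it over 15 arrays were Cdk1, the kinase that drives entry into mitosis (r = 0.981), the condensin subunit Ncaph (0.979) and the cohesion factor Cdca5, also called sororin (0.977). These arrays share their groups, libraries and scaling, so the correlations describe them and are no test. Of 18 tested mitosis genes (19 listed) 6 fell at 12 h and 18 at 24 h, with medians of -1.28 and -1.84. Of 21 tested replication genes (24 listed) 17 fell at 12 h and 21 at 24 h, with medians of -1.54 and -1.85. Over all tested genes 4.56% were called lower at 12 h and 19.4% at 24 h. The mean of the mitosis genes, relative to undifferentiated cells, was from -0.84 to -0.61 in the 4 differentiated arrays of suffix B and from -2.81 to -1.40 in the others. Hmgb2 in those same arrays of suffix B lay between 5.45 and 5.61, above the other differentiated arrays. The part of cell division in the Hmgb2 result was not tested.

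**Figure D2:**
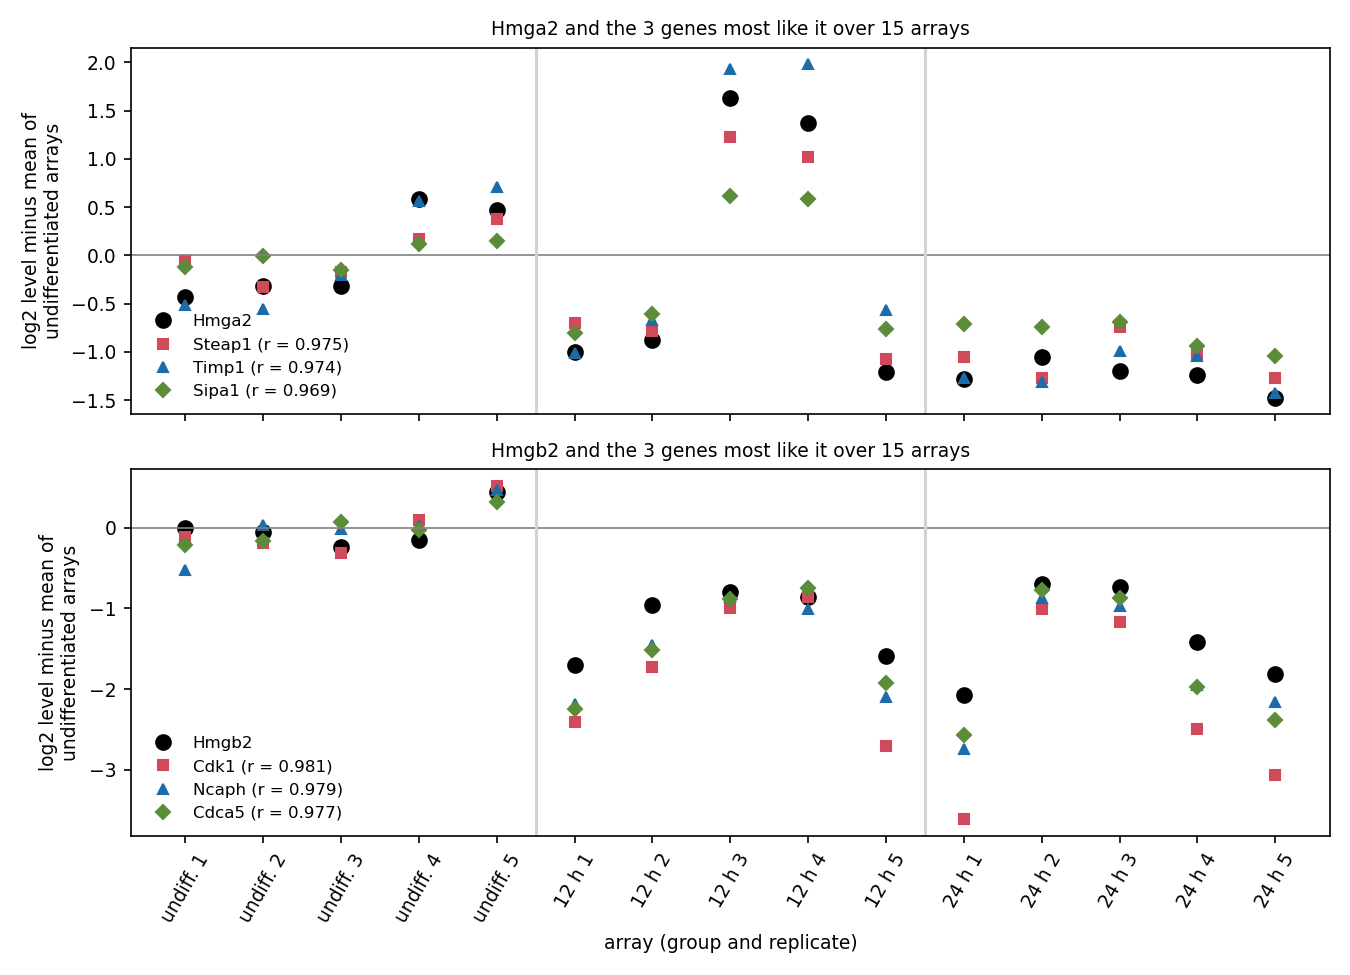
Log2 level minus the mean of the undifferentiated arrays for Hmga2 (upper panel) and Hmgb2 (lower panel), each with the 3 tested genes of highest Pearson r, in each of 15 arrays. Hmga2 and its nearest genes are high in 12 h replicates 3 and 4, where Hmgb2 and the mitotic genes lie below all undifferentiated arrays.

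The 250 bases before the RefSeq start of the 3 genes with the lowest 24 h differences are shown because their 24 h differences were the most negative among the members. They are given 5' to 3' on the gene's strand (GRCm38.p6): chr8:57511593-57511842 on the plus strand for Hmgb2, chrX:71555667-71555916 on the plus strand for Hmgb3 and chr10:120476470-120476719 on the minus strand for Hmga2. Capitals mark CCAAT, the box bound by NF-Y, TTTGAA, an element found in many cell cycle promoters, and GGGCGG, the GC box, each searched on both strands.
Hmgb2: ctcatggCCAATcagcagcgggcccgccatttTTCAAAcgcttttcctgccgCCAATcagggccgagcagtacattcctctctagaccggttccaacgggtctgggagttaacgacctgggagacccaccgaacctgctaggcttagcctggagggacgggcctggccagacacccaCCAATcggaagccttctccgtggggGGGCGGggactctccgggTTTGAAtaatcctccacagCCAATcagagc
Hmgb3: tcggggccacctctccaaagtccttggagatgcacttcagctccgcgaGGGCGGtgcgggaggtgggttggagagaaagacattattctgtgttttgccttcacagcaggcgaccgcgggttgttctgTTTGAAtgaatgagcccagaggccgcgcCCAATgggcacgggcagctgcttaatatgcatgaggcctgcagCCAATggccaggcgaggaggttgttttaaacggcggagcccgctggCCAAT
Hmga2: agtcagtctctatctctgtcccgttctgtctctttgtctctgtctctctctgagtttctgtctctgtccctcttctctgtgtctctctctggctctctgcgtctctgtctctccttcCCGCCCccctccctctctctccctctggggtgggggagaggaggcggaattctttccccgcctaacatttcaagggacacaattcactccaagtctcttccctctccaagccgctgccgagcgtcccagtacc

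The Hmgb2 window held 4 CCAAT boxes, 2 matches to TTTGAA and 1 GC box. Its nearer TTTGAA lies 30 to 25 bases before the start, between CCAAT boxes at 73 to 69 and 11 to 7 bases. The Hmgb3 window held 3 CCAAT boxes, 1 TTTGAA and 1 GC box. The Hmga2 window held 1 GC box and no match to the other motifs. None of these matches overlapped another. Among all 32851 promoter windows of that length, 33.8% held a CCAAT box and 10.1% held 2 or more. TTTGAA was in 16%, with 2 or more in 1.81%, and a GC box in 32.7%, with 2 or more in 16.7%. The Hmgn1 window held 2 CCAAT boxes, 4 GC boxes and 0 matches to TTTGAA. An Hmgb1 window held 3 CCAAT boxes only, and another held 4 GC boxes only. The Hmgn2 window held 2 GC boxes and the Hmga1 windows 3 and 4, with no match to the other motifs. A match describes the letters only.

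Hmga2, the AT-hook protein, lies on chromosome 10 from 120361268 to 120476469 (GRCm38.p6). With its main probe set, 1450780_s_at, the log2 levels of undifferentiated replicates 1 to 5 were 1.05, 1.17, 1.16, 2.07 and 1.95. At 24 h they were 0.20, 0.43, 0.29, 0.24 and 0.01. All 24 h arrays lay below all undifferentiated arrays. Groups that do not overlap were seen for 25.1% of tested genes at 24 h. The 24 h arrays also lay below the filter level of 0.51, so these values do not show whether Hmga2 was still expressed. The gene passed the filter through the other groups alone. Replicates 1, 2 and 5 at 12 h were at 0.48, 0.60 and 0.27, close to the 24 h level. Replicates 3 and 4 at 12 h were at 3.11 and 2.85, above every other array of the study.

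The measured 24 h difference of Hmga2 was -1.25 ± 0.47 on the log2 scale (n = 5 per group). No fold is given, since the 24 h level is under the filter level and the size of the fall is not settled. The difference narrowly missed the threshold in the fit of all 15 arrays (limma adjusted p = 0.0535). That fit pools the spread of the groups, and the SD of Hmga2 was 1.39 at 12 h against 0.486 in undifferentiated cells and 0.152 at 24 h. With only the 24 h and undifferentiated arrays in the fit the difference passed (± 0.20, adjusted p = 0.000523), when 34.7% of genes were called. It also passed with the suffix as a block (-1.31 ± 0.39, adjusted p = 0.0145; 41.8% called) and without 12 h replicates 3 and 4 (-1.25 ± 0.19, adjusted p = 0.00024; 35% called). Leaving out 12 h replicate 1, 3, 4 or 5 alone was enough for it to pass (adjusted p = 0.0417, 0.0206, 0.0314 and 0.0393, when 35.5%, 32.4%, 31.6% and 32% of genes were called). Leaving out 12 h arrays keeps the 24 h difference at -1.25 and changes only the spread it is set against. These passes are therefore no separate test of a fall. In 20 of the 32 settings tried for Hmga2 the 24 h difference did not pass. Among them were a pseudocount of 1 on the linear scale (-0.81 ± 0.35, limma adjusted p = 0.0902), quantile normalisation (0.0615), median centring (0.0673) and no filter (0.0674). The 24 h difference was -0.91 within suffix A, -1.26 within B and -1.83 within C.

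At 12 h the mean difference of Hmga2 was -0.02 ± 0.47 (adjusted p = 0.988), a mean of arrays that went opposite ways. It was -0.57 within suffix A, 1.37 within suffix B and -1.68 within suffix C, where each group has 1 array. Without replicates 3 and 4, whose RNAs the labels do not show to be separate, it was -1.03 ± 0.22 (adjusted p = 0.0043, when 24.3% of genes were called). These are the 12 h arrays that lay above the undifferentiated ones, so leaving them out is no separate test of a fall. With these replicates averaged as 1 sample the 24 h difference passed (adjusted p = 0.0255; 32.2% called), but the 12 h difference did not (11.2% called). Between 24 h and 12 h the difference was -1.23 ± 0.47 (adjusted p = 0.224).

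The other Hmga2 probe sets showed the same split. For 1422851_at the undifferentiated log2 levels ran from 0.33 to 1.44 and the 24 h levels from -1.08 to -0.72. At 12 h replicates 3 and 4 were at 2.08 and 1.87, and the others from -0.74 to -0.58. For 1450781_at the undifferentiated levels ran from -0.17 to 0.35 and the 24 h levels from -0.88 to -0.67, with 12 h replicates 3 and 4 at 1.26 and 0.86 and the others from -0.73 to -0.47. Both have means below the filter level. In a fit of all 20380 probe sets without a filter their 24 h differences were -1.66 ± 0.49 (adjusted p = 0.0272) and -0.94 ± 0.30 (adjusted p = 0.0383), when 19.5% were called. All their 24 h values lie under the filter level, as do all undifferentiated values of 1450781_at. The sizes are therefore not settled, and these calls are no separate support for the main probe set. The 3 probe sets correlated with each other at r of 0.976, 0.94 and 0.93 over the 15 arrays.

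The genes most like Hmga2 over the 15 arrays were the membrane metalloreductase Steap1 (r = 0.975), the protease inhibitor Timp1 (0.974) and Sipa1 (0.969), a GTPase-activating protein for Rap. The log2 levels of Timp1 were 3.03 and 3.08 in 12 h replicates 3 and 4, between 0.09 and 0.53 in the remaining arrays of that time and between 0.54 and 1.81 in undifferentiated cells. At 24 h Timp1 was between -0.33 and 0.10. In those 12 h replicates Hmgb2 was at 5.51 and 5.45, below the 6.07 or more of undifferentiated cells. These were the highest Hmgb2 levels at 12 h, with 5.36 in replicate 2 as the next. The pair thus lay above the undifferentiated arrays for Hmga2 and below them for Hmgb2. Over the 15 arrays the r of Hmga2 with Hmgb2 was 0.528.

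**Figure D3:**
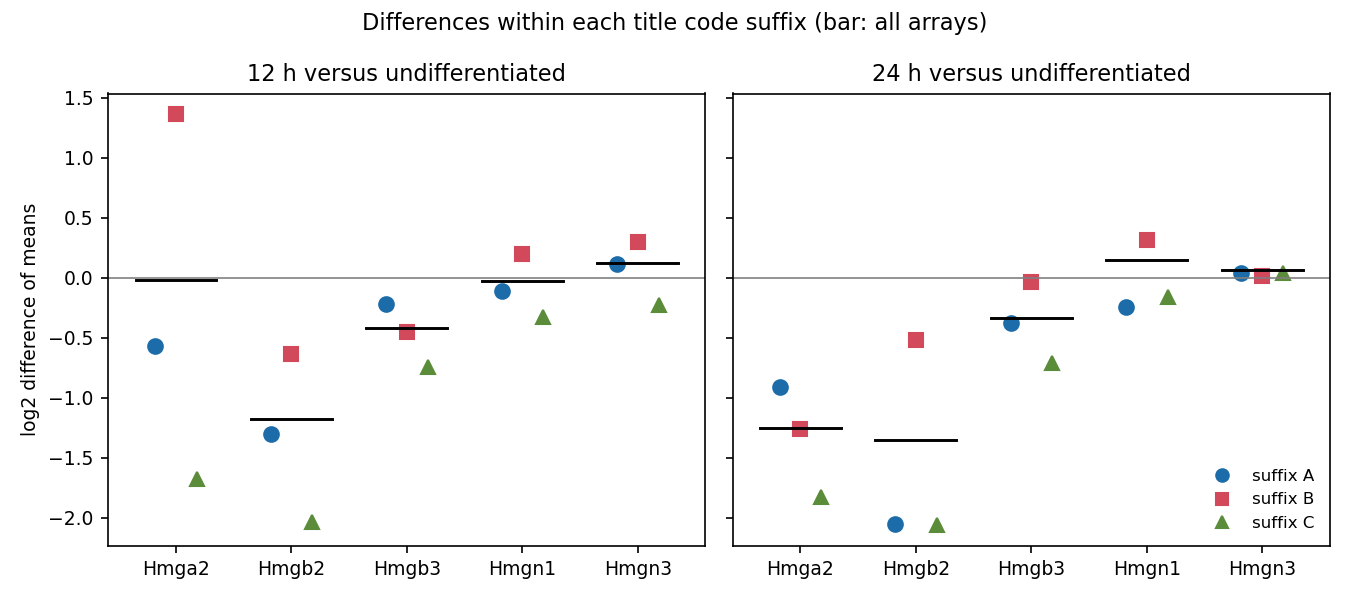
Log2 differences from undifferentiated cells at 12 h (left) and 24 h (right) for the 5 HMG genes, computed within title code suffix A, B or C (points; 1 or 2 arrays per group) and over all arrays (bars). The 12 h difference of Hmga2 is 1.37 within suffix B and negative within A and C, while Hmgb2 is below 0 within every suffix at both times.

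Hmgb3, the X-linked HMG-box gene (from 71555917 to 71560673, GRCm38.p6), is known from progenitor cells, blood stem cells among them. Its log2 levels were 6.53, 6.94, 6.93, 6.74 and 6.91 in undifferentiated cells. At 12 h they were 6.51, 6.52, 6.35, 6.42 and 6.17, and at 24 h 6.35, 6.90, 6.70, 6.01 and 6.40. The 12 h arrays all lay below the undifferentiated ones, by a narrow margin (6.52 against 6.53), and the 24 h arrays overlapped them. At 12 h, 8.16% of tested genes had groups that do not overlap. The differences of -0.42 ± 0.16 at 12 h and -0.33 ± 0.16 at 24 h did not pass (limma adjusted p = 0.103 and 0.112).

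Hmgb3 was negative within each suffix at both times, from -0.74 to -0.22 at 12 h and from -0.71 to -0.03 at 24 h. With the suffix as a random block the 12 h difference passed (adjusted p = 0.0453; 18.4% of genes called) and the 24 h difference did not (0.0829). With the suffix as a fixed block neither passed (limma adjusted p = 0.0505 and 0.103). Without 24 h replicate 2, the 24 h difference passed (-0.44 ± 0.15, limma adjusted p = 0.0365, when 30.6% were called). That array was the highest of its group, so leaving it out enlarges the fall and is no separate test. In 14 of 15 fits that each left out 1 array, the call on the 24 h difference stayed as in the main fit (limma adjusted p up to 0.277). The nearest genes of Hmgb3 over the arrays were the Polycomb methyltransferase Ezh2 (r = 0.864), the scaffold protein Magi1 (0.862) and the nuclear lamina protein Tmpo (0.852). Among the members, Hmgb3 was closest to Hmgb2 (r = 0.723) and ran opposite to Hmgn3 (r = -0.612).

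Hmgn1, a nucleosome-binding protein encoded on chromosome 16 from 96121588 to 96127725 (GRCm38.p6), showed no difference beyond its spread. With probe set 1422495_a_at its log2 levels ran from 8.35 to 9.25 (median 8.54) in undifferentiated cells, from 8.40 to 8.92 (median 8.54) at 12 h and from 8.33 to 9.25 (median 8.82) at 24 h. The groups overlapped almost wholly. The difference was -0.03 ± 0.21 at 12 h (95% interval -0.46 to 0.41; adjusted p = 0.949) and 0.15 ± 0.21 at 24 h (-0.29 to 0.58; adjusted p = 0.619). As ratios, the 12 h interval runs from 0.725 to 1.33. The 24 h difference was 0.31 within suffix B but -0.24 within A and -0.16 within C, and the 12 h difference was 0.20, -0.11 and -0.33 in the same order. The array of suffix C was the highest of the undifferentiated and of the 12 h group, and an array of suffix C was the highest at 24 h.

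Of the other Hmgn1 probe sets, 1455897_x_at and 1438940_x_at followed the first over the arrays (r = 0.983 and 0.926) and had 24 h differences of 0.19 ± 0.20 and 0.21 ± 0.17. The fourth, 1422496_at, stayed below the filter level in every array, between -0.51 and 0.16, and its 24 h difference was -0.23 ± 0.09 (adjusted p = 0.0954 without a filter). The probe sets of Hmgn1 therefore differed in sign at 24 h, with none past the threshold. Genes nearest to Hmgn1 were the RNA-binding protein Hnrnpa2b1 (r = 0.964) and the ribosomal protein genes Rpl8 (0.949) and Rpl6 (0.933).

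Hmgn3, encoded on chromosome 9 from 83109942 to 83147358 (GRCm38.p6), is the HMGN protein known for expression in glia and the eye. Its log2 levels with 1434875_a_at ran from 6.86 to 7.25 (median 6.90) in undifferentiated cells, from 7.02 to 7.22 (median 7.16) at 12 h and from 6.78 to 7.30 (median 7.09) at 24 h. The groups overlapped at both times. The difference was 0.12 ± 0.13 at 12 h (95% interval -0.16 to 0.40) and 0.07 ± 0.13 at 24 h (-0.21 to 0.35), with adjusted p = 0.602 and 0.720. Within suffixes it lay between -0.22 and 0.30 at 12 h and between 0.02 and 0.04 at 24 h. Probe set 1431777_a_at gave 0.17 ± 0.13 and 0.05 ± 0.13. Its nearest genes were Gpx8, an endoplasmic reticulum peroxidase (r = 0.856), the protease inhibitor Cstb (0.845) and the endosomal protein Ociad1 (0.810).

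**Figure D4:**
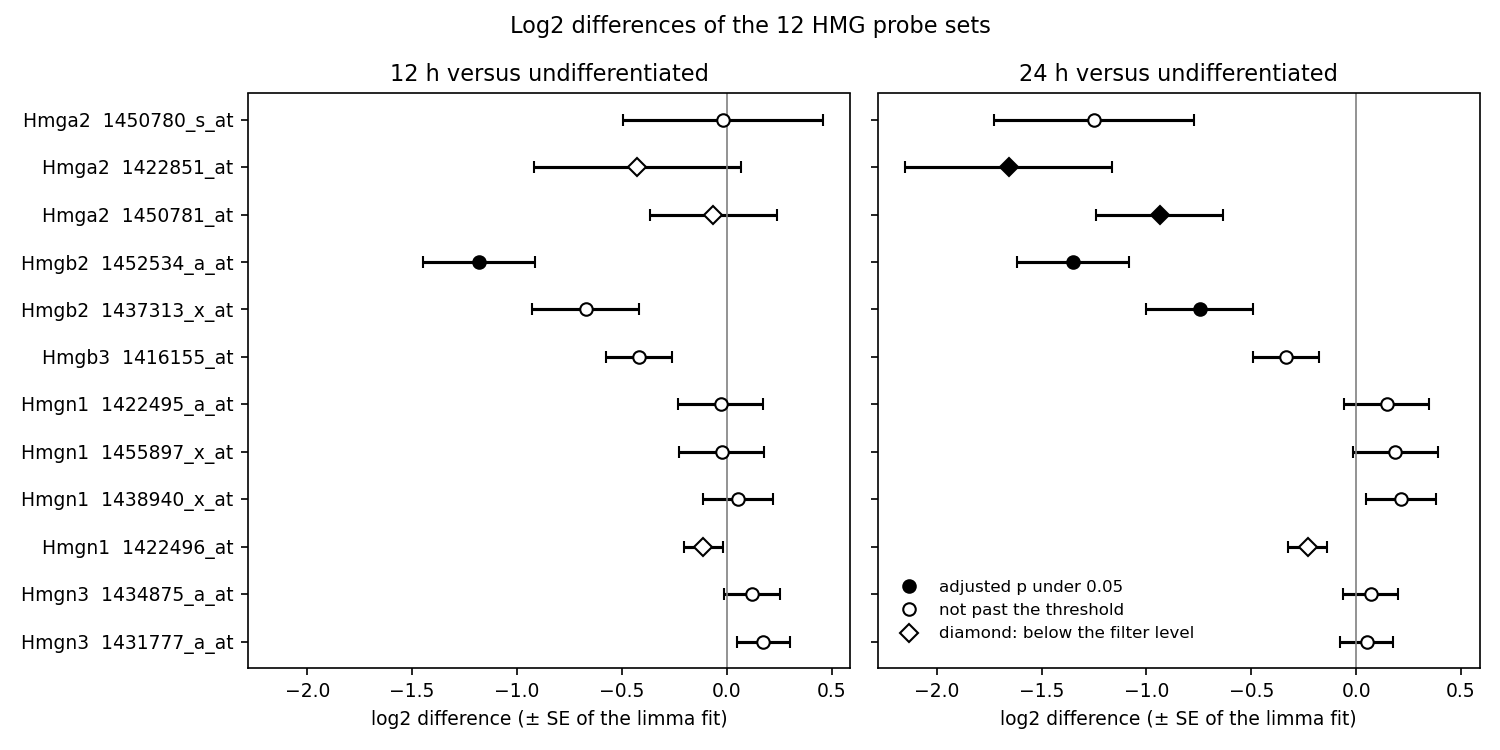
Log2 differences of all 12 HMG probe sets from undifferentiated cells at 12 h (left) and 24 h (right), with the SE of the limma fit. Filled symbols passed an adjusted p under 0.05 and diamonds are probe sets below the filter level, tested without the filter; the probe sets of Hmga2 and Hmgb2 lie below 0 at 24 h, and those of Hmgn1 and Hmgn3 within 0.25 of 0.

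Other chromatin genes were read from lists chosen with earlier results of these data known. Their counts stand beside 4.56% of all tested genes called lower and 3.30% higher at 12 h, and 19.4% lower and 12.7% higher at 24 h; nothing particular to a list is read from them. Of 17 tested histone chaperones 5 fell and 0 rose at each time, with medians of -0.36 and -0.40. The remodelling ATPase Hells fell by 1.86 ± 0.47 at 12 h and fell by 2.69 ± 0.47 at 24 h. The replication-coupled assembly factor Chaf1b fell by 1.88 ± 0.33 and the histone chaperone Nasp fell by 1.16 ± 0.25 at 24 h. The 24 h mean of Chaf1b, 0.16, lies under the filter level, so the size of its fall is not settled. Of 18 heterochromatin and Polycomb genes 2 fell and 1 rose at 12 h, and 9 fell and 2 rose at 24 h. Among them the lamin gene Lmnb1 fell by 1.29 ± 0.31 at 24 h, while Ezh1, the Polycomb methyltransferase of resting cells, rose by 0.65 ± 0.15. Ezh2, its counterpart in dividing cells and the gene nearest to Hmgb3, fell by 0.44 ± 0.16 at 24 h (adjusted p = 0.0414).

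Other genes with an HMG box or the HMG name went both ways: of 15 tested, 1 rose and 1 fell at 12 h, and 4 rose and 3 fell at 24 h. Hmgn5, an HMGN relative, fell by 0.72 ± 0.18 at 24 h, as did Tfam, the mitochondrial HMG-box factor, by 0.55 ± 0.14. The HMG-box factor Tcf7l1 of the Wnt pathway rose by 0.94 ± 0.22. Of 6 core histone variants 2 fell at each time, H2ax by 1.54 ± 0.33 and the centromeric Cenpa by 1.83 ± 0.39 at 24 h, and Macroh2a2 rose by 0.39 ± 0.13. Only 2 of 10 linker histone genes could be tested. Of these limma called 0 at either time, and 0 had an unadjusted p under 0.05; the 12 h mean of both in replicates 3 and 4 lay at -0.98 and -0.75 relative to undifferentiated cells, against -0.19 to 0.12 in the other 12 h arrays.

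Of 10 genes tied to Hmga2 in the literature on growth and stem cells, 4 could be tested, 0 were called by limma at 12 h (0 with an unadjusted p under 0.05) and 1 at 24 h, the microRNA-processing enzyme Dicer1, which rose by 0.54 ± 0.14. Of 10 genes for receptors or partners of extracellular HMGB1, 3 could be tested. The chemokine receptor Cxcr4 rose by 1.06 ± 0.27 at 12 h and 1.55 ± 0.27 at 24 h, and the proteoglycan Sdc1 fell by 1.20 ± 0.25 at 24 h. The undifferentiated mean of Cxcr4, 0.40, lies under the filter level, so the size of its rise is not settled.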

How the data were processed

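Total RNA was labelled with biotin and hybridised to 15 Affymetrix arrays, per the labels' protocols. Each array has a single value for every probe set in the deposited table. The submitters' processing notes name MAS5. The sources used here do not give its version, settings, scaling or log base. The deposited values were read as log10, because the slope of the hybridisation spike-ins on the log10 of their standard concentration was 0.988 ± 0.05 (SD, n = 15 arrays), and were multiplied by 3.32 to give log2. Array medians ran from 0.287 to 0.453 (log10), so the offset stays unknown. The arrays of suffix C had the lowest medians, from 0.287 to 0.348, against 0.399 or more in the other arrays. The 24 h group has 2 of them and each other group 1. No further normalisation was applied.

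Probe sets were named from the platform annotation: among 22626 other than controls, 691 list several genes and 1555 none here, and neither kind was used. A gene was read from its probe set of highest mean, and genes above the 40th percentile of probe set means (0.512 on the log2 scale) were tested, 7909 of 12393. All arrays entered 1 fit by limma 3.58.1 under R 4.3.3, with group means, a variance trend and Benjamini-Hochberg adjustment, and genes under 0.05 were called. Probe sets were also fitted singly. On simulated data for 24 h against undifferentiated cells (7909 genes) 34.2% of the genes given a 1.5-fold change were called and 80.2% at a 2-fold change, and 5.12% of calls were false. The simulation changed only a small part of the genes and drew independent noise for each array, with no suffix effect. In the real data 32.1% of genes were called at 24 h and arrays share suffixes, so these rates may not hold there. Named genes were all members, up to 4 called genes per list and comparison, and the 3 genes of highest r per member. Members and lists were chosen with earlier results of these data known. Alternatives changed the labels, pseudocount, filter, normalisation, probe sets, variance model, batch terms and arrays.

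Promoter windows and gene positions come from RefSeq tables of GRCm38.p6; 7 of the 8 members matched a promoter.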

Additional observations from a re-analysis of the deposited data

How the results depend on the processing

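Each result was recomputed under 34 settings (32 for Hmga2, which has no tested value with a filter at the 60th percentile or with the mean of its probe sets). At 12 h the number of members called was 1 and stayed so in 27 settings. It was 0 with groups from the array file codes, with the actin ratio added to the fit and without suffix C. It was 2 with the suffix as a random block (Hmgb3 added) and, with Hmga2 added, without 12 h replicates 3 and 4, with or without the suffix as a fixed block. At 24 h it was 1 and stayed so in 19 settings, was 0 with the file codes and with the actin ratio, and was 2, with Hmga2 added, in the fit of only the 2 groups compared, with the suffix as a fixed or random block, with 12 h replicates 3 and 4 averaged or left out, with both the suffix block and those replicates left out, with median centring and the suffix block together, and with a block for each run of neighbouring title codes. Leaving out single arrays gave 0 to 1 called at 12 h and 1 to 2 at 24 h. Between 24 h and 12 h 0 members were called in all 34. No called difference changed sign. The settings that join the suffix block with another change, and the block of runs, were chosen after seeing the data.

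With groups from the array file codes the Hmgb2 differences were -0.13 at 12 h and -0.28 at 24 h and those of Hmga2 -0.30 and -0.03, limma called 0 of 7909 genes in every comparison, and 81 and 118 genes had an unadjusted p under 0.05 at 12 h and 24 h; the cause was not tested. Leaving out single arrays moved the Hmgb2 difference from -1.28 to -1.05 at 12 h and from -1.51 to -1.17 at 24 h. The signs of the Hmgn1 and Hmgn3 differences changed under several settings, among them quantile normalisation at 24 h (-0.16 and -0.06). The labels carry no replicate numbers, but their title codes fall into 6 runs of consecutive numbers, 5 of them with over 1 array. Nothing in the labels says what a run shares. Of 13 pairs of arrays from different groups in the same run, 12 had deviations from the group means that correlated above 0.1 (median 0.327, lowest -0.09). The median was 0.338 for 12 pairs that share only the suffix, so the runs were not taken as pairs. For 50 pairs of different suffix the median was -0.164, with 5 above 0.1. Arrays of a suffix thus deviated together, and the main fit has no suffix term, so its p-values leave this out. With the runs as a block Hmgb2 was called at both times (limma adjusted p = 0.0177 and 0.00494), Hmga2 at 24 h (-1.43 ± 0.46, adjusted p = 0.0306), and Hmgb3 at neither (0.0588 and 0.212), although it was negative in all 5 runs at 12 h; 14.8% and 38.9% of genes were called. Among 36 sets of 5 values, 1 per probe set and group, 0 held a single array apart by Dixon's test. The test takes the gap between an extreme value and its nearest neighbour over the range, so arrays that are high together hide each other. For the high pair of Hmga2 arrays at 12 h the gap was 0.0924 of the range. The test therefore cannot tell whether that pair stands apart. Hmga2 and its probe sets lie near the lower end of the array's range, where a log2 difference can be understated.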
